A study of Rattus norvegicus with 8 samples.

Results

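The genes described are those for copying DNA and for mitosis in the developing rat pineal gland: 64 transcripts of 63 gene symbols, out of 16932 transcripts of 16462 symbols in the series. They were picked by gene symbol, with earlier results of these data known. The symbols come from the origin recognition (Orc), Mcm, Cdc, cyclin, E2f, centromere (Cenp), aurora kinase, polo-like kinase and mitotic kinesin families. Added to these were Top2a, Pcna, Fancd2, Bub1, Cdk1, Cdk2, the primases, the ribonucleotide reductase subunits and Tyms. Of the 64, 58 reached 1 FPKM (fragments per kilobase of transcript, relative to all mapped fragments of that library) in at least 2 libraries and were tested. A transcript could reach that minimum at the young ages alone: 26 of the 58 did so with no library of P20 or P40 at 1 FPKM, 2 of them (Cdc6 and E2f7) at E21 alone.

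Glands came from Sprague-Dawley rats aged embryonic day 21 (E21) or postnatal day 5 (P5), day 20 (P20) or day 40 (P40), kept in 14 h of light and 10 h of dark. At each age 1 library was made at mid-night (zeitgeber time 19 h) and 1 at mid-day (zeitgeber time 7 h), so there were 8 libraries and no repeat of any age and time. Each was a pool of glands, from 15 animals at mid-night and 13 at mid-day at E21. The pools held 19 animals at mid-night and 17 at mid-day for P5, 10 and 13 for P20, and 3 each for P40. The labels name no genotype and no treatment beyond this light cycle, which all groups shared. With no repeats, a p-value here reflects how far the pools departed from the fitted terms, and not a spread between animals. In the fit of age and time of day, that departure includes any night effect that differed with age. Depth was estimated from the lowest cluster of values among short olfactory receptor transcripts. By this estimate the P20 mid-day library was lowest, at 0.413 of the deepest (P5 mid-day), and the others lay between 0.517 and 0.979 of it. The estimate is rough, since each cluster held 4 to 14 values. Of 10 pinealocyte markers 7 rose between E21 and P40, where 16.1% of all transcripts tested did. Tph1, the tryptophan hydroxylase of the pathway to melatonin, was abundant in every library, at 331 to 2756 FPKM.

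A cell copies its DNA once per division. The origin recognition complex, Cdc6 and the Mcm ring load on origins in G1 ("licensing"), and the kinase Cdc7 and cyclin-dependent kinases then start the forks, which the clamp Pcna and the primases keep running. E2F factors drive the genes of this S phase programme, and a later wave of genes (cyclin B with Cdk1, aurora and polo-like kinases, centromere proteins, kinesins) serves chromosome condensation and segregation. In the rat the pineal primordium proliferates before birth, and the adult pinealocyte is a non-dividing, photoreceptor-related cell that makes melatonin at night.

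At P40, 48 of the 58 tested transcripts were lower than at E21 (limma, adjusted p under 0.05), where 26.8% of all 9960 transcripts tested were lower. None was higher, against 16.1% of all. The median change was -1.75 on the log2(FPKM + 1) scale, beside -0.18 over all transcripts. By percent of the E21 level, the median transcript held 38.6% at P5, 12.2% at P20 and 11.8% at P40, whereas the median of all transcripts tested held 96.3%, 83.0% and 85.6%. At P40, 18 of the 58 kept 5% or less of their E21 level, 25 kept 10% or less and 47 kept 50% or less. Among the 32 that reached 1 FPKM in a library of P20 or P40, 22 fell. The share among all transcripts meeting that condition was not counted, and the 26.8% is over all 9960, so 22 of 32 has no direct comparison. In these whole-gland pools, fewer dividing cells and less RNA per cell cannot be told apart.

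**Figure D1:**
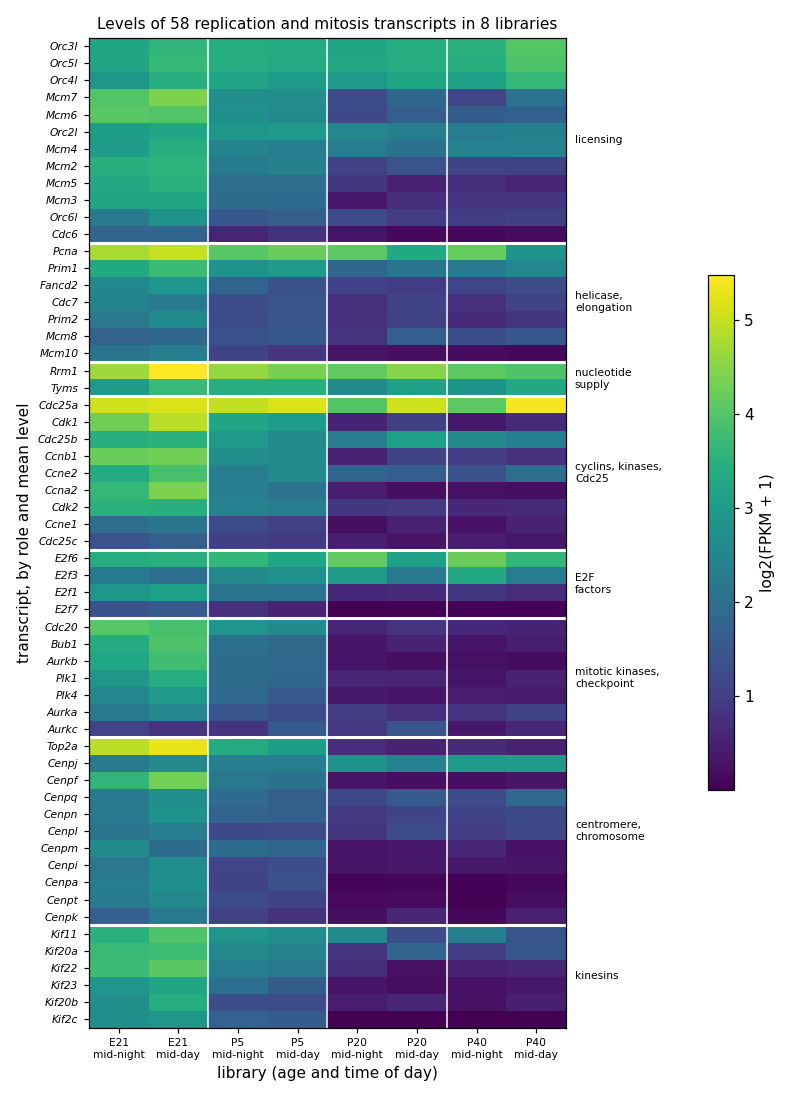
Colour gives log2(FPKM + 1) of the 58 tested transcripts (rows, grouped by role and ordered by mean level) in the 8 libraries (columns, mid-night left of mid-day at each age). Most rows darken at P5 and again at P20, while Orc3l, Orc4l, Orc5l, Rrm1, Tyms, Cdc25a, E2f6, E2f3 and Cenpj stay bright or brighten.

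Both libraries of the older age lay under both of the younger for 49 transcripts at P5 against E21 (35.0% of all transcripts did), 45 at P20 against P5 (41.4%), 5 at P40 against P20 (11.0%) and 50 at P40 against E21 (46.1%). Both lay above for 1 at P5 against E21 (E2f3; 30.4% of all), 1 at P20 against P5 (Cenpj; 11.3%) and 3 at P40 against E21 (Cenpj, E2f3 and E2f6; 28.2%). For P40 against P20 there were 11 above (18.7% of all): Cenpj, Cenpn, E2f1, E2f7, Fancd2, Mcm3, Mcm4, Orc3l, Orc5l, Plk4 and Prim1. That count is near the share among all transcripts and is not read as a result about these genes. Some levels were very low, such as E2f7 at 0.0134 and 0.0197 FPKM at P20 and 0.0383 and 0.0396 at P40 (mid-night, then mid-day). A stepwise order, with E21 over P5 over P20 at mid-night and again at mid-day, was met by 45 of the 58 (77.6%), beside 24.4% of all transcripts tested.

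Promoters are shown for 4 of the genes because the transcripts that fell together belong to gene classes known for shared promoter elements. Those are the E2F element of S phase genes, the CHR (cell cycle genes homology region) of genes that peak in mitosis, and the CCAAT box often found beside the CHR. Sequences are RefSeq's, on GRCr8, and give the 250 bases before the annotated start, 5′ to 3′ on the gene's strand. They belong to the 4 members of highest mean level at E21 among those with an E2F or CHR match: Cdc25a (chr8:118742798-118743047, + strand), Top2a (chr10:84473094-84473343, - strand), Rrm1 (chr1:166235654-166235903, + strand) and Cdk1 (chr20:19265043-19265292, + strand). Capitals mark matches on either strand to the E2F element (TTTCCCGC, TTTCGCGC, TTTGCCGC or TTTGGCGC), the CHR (TTTGAA or TTCGAA) or CCAAT.
Top2a: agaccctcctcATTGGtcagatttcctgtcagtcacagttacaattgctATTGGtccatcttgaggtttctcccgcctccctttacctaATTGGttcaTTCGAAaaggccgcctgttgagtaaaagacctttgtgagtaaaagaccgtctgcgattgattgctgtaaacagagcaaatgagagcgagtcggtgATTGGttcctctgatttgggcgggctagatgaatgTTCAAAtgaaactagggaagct
Cdk1: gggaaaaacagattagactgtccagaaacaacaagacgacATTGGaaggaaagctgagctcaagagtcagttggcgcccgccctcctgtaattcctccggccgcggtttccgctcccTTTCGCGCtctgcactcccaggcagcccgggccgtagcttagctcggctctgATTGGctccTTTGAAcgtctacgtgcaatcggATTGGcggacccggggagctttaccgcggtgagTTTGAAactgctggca
Rrm1: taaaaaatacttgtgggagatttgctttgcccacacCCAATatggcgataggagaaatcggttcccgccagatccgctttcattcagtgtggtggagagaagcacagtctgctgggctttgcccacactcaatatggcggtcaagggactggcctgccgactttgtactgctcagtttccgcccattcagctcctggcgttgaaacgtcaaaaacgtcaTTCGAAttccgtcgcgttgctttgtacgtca
Cdc25a: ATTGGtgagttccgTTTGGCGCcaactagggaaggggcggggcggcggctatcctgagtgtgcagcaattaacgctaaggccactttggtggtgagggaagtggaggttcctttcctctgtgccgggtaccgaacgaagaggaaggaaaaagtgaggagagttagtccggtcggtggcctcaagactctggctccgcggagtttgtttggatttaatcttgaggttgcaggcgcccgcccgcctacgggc

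The Cdk1 window holds an E2F match beginning 133 bases before the start, CHR matches at 72 and 16 bases, and 3 CCAAT boxes on the reverse strand. Top2a has CHR matches at 152 and 22 bases with 4 reverse CCAAT boxes and no E2F match. Rrm1 has a CHR match at 31 bases and a CCAAT box at 214, and Cdc25a an E2F match at 236 bases and a reverse CCAAT box at 250 bases, with no CHR. Of these 4, Top2a and Cdk1 had the largest falls of all 58 by P40 on the log2(FPKM + 1) scale, and Cdc25a did not pass the test.

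In windows of 250 bases before to 50 after the start, 50 of the 58 tested members had a RefSeq promoter. The E2F element was present in 13 (26.0%), the CHR in 20 (40.0%) and CCAAT in 33 (66.0%). Among the 8007 genes of tested transcripts with a promoter the shares were 4.53%, 13.4% and 39.1%, and among all 27457 promoters 2.37%, 21.0% and 39.6%. In 1 member, matches of different kinds shared bases. The elements were spread unevenly over the roles. For licensing genes 7 of 9 windows held the E2F element and 2 the CHR, while for centromere and chromosome genes none of 10 held the E2F element and 6 held the CHR. Mitotic kinases and kinesins each had 3 CHR matches in 6 windows and no E2F match. Of the members lower at P40, 7 of 41 held the E2F element and 19 the CHR, and of those not called, 6 of 9 held the E2F element and 1 the CHR. A match is a run of letters, not a shown binding site.

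Among the licensing genes, 9 of 12 fell by P40 against E21, and the 3 that did not are subunits of the origin recognition complex, the ATP-driven machine that marks origins. Orc3l had 8.41 and 11.2 FPKM at E21 (mid-night, then mid-day, here and in the lists of levels that follow), 9.45 and 9.37 FPKM at P5, 8.45 and 9.50 at P20, then 10.4 and 15.3 at P40. Orc5l had 8.51 and 11.8, 9.50 and 9.17, 8.82 and 9.58, and 9.91 and 14.6 FPKM over the same ages. Orc4l had 6.49 and 9.81, 8.17 and 6.98, 6.80 and 8.53, and 7.79 and 11.5 FPKM. These subunits had the highest mean levels of the role, and for each the P40 mid-day library was the highest of the 8 while the other ages overlapped. Their log2 changes at P40 against E21 were 0.35 ± 0.19 for Orc3l, 0.24 ± 0.20 for Orc5l and 0.22 ± 0.22 for Orc4l (SE; adjusted p = 0.164, 0.350 and 0.443). With each library centred on its median Orc3l passed as higher (0.55, adjusted p = 0.0420). Orc6l fell by 1.53 ± 0.23 (adjusted p = 0.00167) and Orc2l by 0.79 ± 0.18 (adjusted p = 0.0105), the Orc2l call being lost without the E21 mid-day library (0.0785) or either P40 library (0.0805 without mid-night, 0.0549 without mid-day).

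The Mcm genes of the ring-shaped replicative helicase were already lower at P5. Mcm7 had 15.0 and 20.3 FPKM at E21, 5.47 and 5.54 FPKM at P5, 1.41 and 2.59 at P20, then 1.20 and 3.23 at P40. Mcm6 had 15.8 and 14.9, 5.71 and 5.02, 1.30 and 2.16, and 2.05 and 2.25 FPKM. In each the E21, P5 and later libraries formed 3 separate levels, with P20 and P40 overlapping. All 6 Mcm genes of the ring were lower at P40, with log2 changes from -0.80 ± 0.20 for Mcm4 (adjusted p = 0.0164) to -2.75 ± 0.20 for Mcm5 (adjusted p = 7.67e-05). Mcm4 kept 52.0% of its E21 level, whereas Mcm5 kept 5.94%. The Mcm4 call was lost without the E21 mid-day library (adjusted p = 0.143) or either P40 library (0.0888 without mid-night, 0.0844 without mid-day). Cdc6, the loader of the ring, whose E21 mean was 2.41 FPKM, fell by 1.63 ± 0.18 (adjusted p = 0.000485). The Mcm7 transcript spans the host locus of Mir25, Mir93 and Mir106b, whose own entries were listed at 0 in every library.

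Of the 7 tested genes for helicase activation and elongation 6 fell by P40. Pcna, the sliding clamp of the polymerases, had 26.2 and 31.6 FPKM at E21, 15.5 and 17.8 FPKM at P5, 16.1 and 9.01 at P20, then 17.3 and 6.19 at P40. Its mid-day libraries were lower at each older age, while its mid-night libraries of P5, P20 and P40 lay close together. Pcna fell by 1.38 ± 0.37 at P40 against E21 (adjusted p = 0.0205), a call lost without the P40 mid-day library (-0.76, adjusted p = 0.160) or the E21 mid-day library (-0.92, adjusted p = 0.129). Prim1, the catalytic primase subunit, had 9.06 and 12.4, 6.09 and 6.82, 2.53 and 3.36, and 3.70 and 4.88 FPKM, and fell by 1.14 ± 0.17 (adjusted p = 0.00171). It was lowest at P20 at both times of day. Fancd2, of the Fanconi anaemia pathway for cross-linked DNA, had 4.87 and 6.36, 2.39 and 1.56, 1.15 and 0.973, and 1.20 and 1.44 FPKM, and fell by 1.51 ± 0.22. Cdc7, Mcm10 and Prim2 also fell, with log2 changes of -2.08 to -1.42. Mcm8, a helicase of homologous recombination, had 2.29 and 2.58, 1.62 and 1.85, 0.771 and 2.12, and 1.49 and 1.78 FPKM and did not pass (-0.38 ± 0.23, adjusted p = 0.206).

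For nucleotide supply, 1 of the 2 tested genes fell by P40. Rrm1, the large subunit of ribonucleotide reductase, had 24.4 and 43.7 FPKM at E21, 23.6 and 19.4 FPKM at P5, 16.6 and 21.3 at P20, then 16.2 and 14.6 at P40. The E21 mid-day library stood apart from the other 7. Rrm1 fell by 1.04 ± 0.27 at P40 (adjusted p = 0.0166), a call lost without the E21 mid-day library (-0.62, adjusted p = 0.116) or the P40 mid-day library (-0.82, adjusted p = 0.124). Tyms, thymidylate synthase, had 7.19 and 12.1, 9.63 and 9.80, 5.05 and 7.84, and 6.19 and 8.89 FPKM, with E21 overlapping every other age (-0.30 ± 0.20 at P40, adjusted p = 0.272).

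Of the 9 tested cyclin, kinase and Cdc25 genes 8 fell by P40. Cdk1, the kinase that drives entry into mitosis, had 18.7 and 29.3 FPKM at E21, 8.51 and 7.22 FPKM at P5, 0.437 and 1.06 at P20, then 0.281 and 0.593 at P40. Ccna2, the cyclin of S phase and G2, had 11.6 and 20.0, 4.10 and 3.26, 0.365 and 0.149, and 0.185 and 0.156 FPKM. For both genes every P5 library was under every E21 library and over every later one. Cdk1 fell by 4.10 ± 0.24 at P40 (adjusted p = 3.78e-05) and Ccna2 by 3.80 ± 0.27 (adjusted p = 6.61e-05). Ccnb1, the mitotic partner of Cdk1, fell by 3.37 ± 0.24, Cdk2 by 2.83 ± 0.17, and the G1/S cyclins Ccne2 and Ccne1 changed by -1.96 ± 0.22 and -1.66 ± 0.19.

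The Cdc25 phosphatases, which remove inhibitory phosphates from the cyclin-dependent kinases, differed among themselves. Cdc25a had the highest mean level of all 64 transcripts, with 33.2 and 35.8 FPKM at E21, 30.5 and 34.9 FPKM at P5, 15.2 and 32.9 at P20, then 16.1 and 41.5 at P40. Only its P20 and P40 mid-night libraries were set apart, below the other 6. Its change at P40 was -0.39 ± 0.31 (adjusted p = 0.336), or 0.03 without the P40 mid-night library. Cdc25b had 9.88 and 10.3, 6.87 and 5.18, 4.02 and 7.70, and 5.15 and 4.15 FPKM and fell by 0.98 ± 0.28 (adjusted p = 0.0248). That call was lost without any 1 of the E21 or P40 libraries (adjusted p = 0.0526 to 0.158) and with no filter on low values (0.0556). Cdc25c, under 2.2 FPKM throughout, fell by 1.14 ± 0.19.

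Among the 4 E2F factors, E2f1 and E2f7 fell and E2f3 and E2f6 did not. E2f1, an activator of S phase genes, had 6.37 and 7.57 FPKM at E21, 3.33 and 3.34 FPKM at P5, 0.553 and 0.592 at P20, then 0.865 and 0.610 at P40, and fell by 2.20 ± 0.19 (adjusted p = 0.000147). E2f7, an atypical repressor with an E21 mean of 1.76 FPKM, fell by 1.41 ± 0.18. E2f6, a repressor that acts without the retinoblastoma protein, had 9.59 and 9.76, 11.4 and 8.35, 16.9 and 7.69, and 17.9 and 11.4 FPKM. E2f3, an activator, had 3.81 and 2.93, 4.96 and 5.82, 6.89 and 3.62, and 8.94 and 4.03 FPKM. In both, the P20 and P40 mid-night libraries were the highest of the 8. The changes at P40 were 0.70 ± 0.28 for E2f3 (adjusted p = 0.0813) and 0.52 ± 0.25 for E2f6 (adjusted p = 0.127). E2f3 passed as higher without a P5 library (adjusted p = 0.0470 without mid-night, 0.0468 without mid-day), and E2f6 without the E21 mid-day library (0.0440). The E2f3 model covers only 4146 bases of rn4 (chr17:41159890-41164035), so it may not hold the whole gene.

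Of the 7 mitotic kinase and checkpoint genes 6 fell. Cdc20, the activator of the anaphase-promoting complex, had 15.6 and 13.8 FPKM at E21, 6.28 and 5.05 FPKM at P5, 0.475 and 0.797 at P20, then 0.547 and 0.468 at P40. Bub1, a kinase of the spindle checkpoint, had 9.36 and 14.5, 2.99 and 2.72, 0.261 and 0.468, and 0.239 and 0.370 FPKM. Aurkb, the kinase of the chromosomal passenger complex, had 8.80 and 13.0, 2.85 and 2.66, 0.232 and 0.145, and 0.181 and 0.133 FPKM. In all 3 the E21, P5 and later libraries were separate. The log2 changes at P40 against E21 were -3.38 ± 0.20 for Cdc20, -3.28 ± 0.21 for Bub1 and -3.34 ± 0.22 for Aurkb (adjusted p = 4.01e-05, 4.9e-05 and 4.92e-05). Those of Plk1, Plk4 and Aurka, which also fell, were -2.72 ± 0.21, -2.34 ± 0.21 and -1.41 ± 0.21. Aurkc, an aurora kinase best known from meiosis, had 1.15 and 0.796, 0.767 and 1.93, 0.887 and 1.72, and 0.271 and 0.560 FPKM and did not pass at P40 (-0.48 ± 0.25, adjusted p = 0.156, or 0.0466 without the E21 mid-day library).

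Of the 11 centromere and chromosome genes 10 fell. Top2a, the topoisomerase that untangles sister chromatids, had 29.3 and 39.1 FPKM at E21, 9.40 and 7.38 FPKM at P5, 0.610 and 0.440 at P20, then 0.579 and 0.423 at P40. It fell by 4.54 ± 0.22 at P40 (adjusted p = 2.22e-05), the largest change of the 58 on the log2(FPKM + 1) scale, and kept 1.47% of its E21 level. By that percent Ccna2 (1.08%), Cenpa (1.34%), Cenpf (1.39%), Aurkb (1.44%) and the tested Kif2c transcript kept less. Cenpf, a large protein of the outer kinetochore, had 11.0 and 19.0, 3.57 and 3.10, 0.253 and 0.164, and 0.151 and 0.265 FPKM and fell by 3.68 ± 0.25. Cenpa, the histone variant of centromeres with an E21 mean of 4.77 FPKM, fell by 2.42 ± 0.19. Its levels were 3.94 and 5.61, 1.18 and 1.58, 0.0759 and 0.0503, and 0.0428 and 0.0856 FPKM. The other 7 that fell (Cenpi, Cenpk, Cenpl, Cenpm, Cenpn, Cenpq and Cenpt) had log2 changes of -2.30 to -0.91. Cenpq was lost without the E21 mid-day (adjusted p = 0.104) or P40 mid-night library (0.142). Cenpj, which despite its symbol encodes a protein of centriole assembly, had 3.83 and 4.96, 4.11 and 4.10, 5.95 and 4.38, and 6.84 and 7.17 FPKM. Its P40 libraries were above all others, with a change of 0.58 ± 0.21 (adjusted p = 0.0546, or 0.0253 with quantile normalization and 0.0283 with each library centred on its median). It also passed without a P20 library (0.0413 without mid-night, 0.0405 without mid-day).

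All 6 tested mitotic kinesins fell by P40. Kif20a, a motor of cytokinesis, had 12.2 and 12.7 FPKM at E21, 4.96 and 4.49 FPKM at P5, 0.775 and 2.46 at P20, then 0.984 and 1.79 at P40. Kif22, a chromosome arm motor, had 12.6 and 15.9, 4.15 and 3.64, 0.651 and 0.185, and 0.409 and 0.514 FPKM. Both formed separate E21, P5 and later levels, and fell, by log2 changes of -2.52 ± 0.27 for Kif20a and -3.38 ± 0.23 for Kif22. Kif23 and Kif20b, also of cytokinesis, changed by -2.77 ± 0.22 and -2.69 ± 0.22. Kif11, the motor that pushes spindle poles apart, had 10.3 and 14.7, 6.24 and 5.30, 5.16 and 1.49, and 4.14 and 1.69 FPKM. Its mid-night libraries stayed within 4.14 to 6.24 FPKM after birth, and it fell by 1.84 ± 0.38 (adjusted p = 0.00703, or 0.0538 without the P40 mid-day library), the least of the role. Kif2c, a microtubule depolymerase, is listed as 2 transcripts: one had 5.67 and 6.45 FPKM at E21, 2.31 and 2.06 at P5 and under 0.0001 later, and the other was at or near 0 at E21 and P5 and at 0.216 to 0.429 FPKM at P20 and P40. How fragments were divided between them is not known, so the size of the first one's fall, by 2.82 ± 0.18, is uncertain. With both transcripts summed, Kif2c fell by 2.44 at P40 against E21 (adjusted p = 4.7e-05). Kif20a overlaps Cdc23 by 16 bases, Cenpt overlaps Tsnaxip1 by 142 and Cenpk overlaps Ppwd1 by 330, and whether the values use strand is not given in the sources used here.

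**Figure D2:**
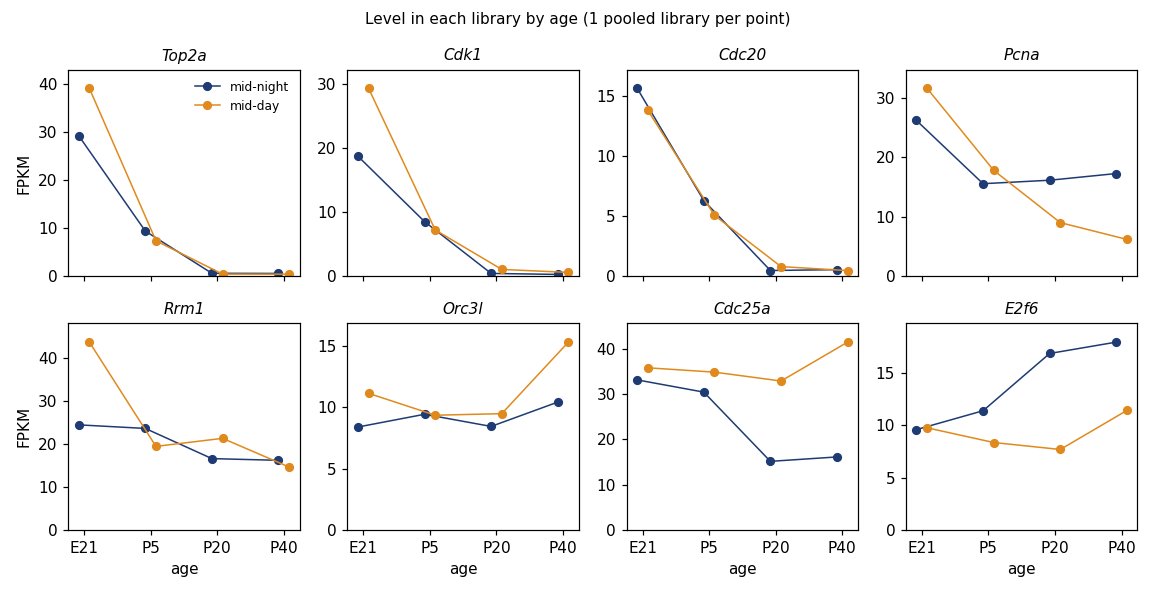
FPKM (vertical axis, from 0) of 8 transcripts at the 4 ages (horizontal axis) in the mid-night and mid-day libraries, 1 pooled library per point. Top2a, Cdk1 and Cdc20 approach 0 by P20, Rrm1 stays above 14 FPKM and Orc3l above 8 FPKM, and Pcna, Cdc25a and E2f6 separate by time of day at P20 and P40.

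The lower levels were reached over the steps before and after P5. At P5 against E21, 40 of the 58 were lower, where 6.84% of all transcripts tested were lower, and none was higher (8.29% of all were). The median change was -1.02, beside -0.04 over all. The 3 largest were Top2a (-1.90 ± 0.22, adjusted p = 0.00209), Cenpf (-1.84 ± 0.25) and Ccna2 (-1.80 ± 0.27), and the 3 smallest E2f6 (0.01 ± 0.25), Orc3l (-0.04 ± 0.19) and Tyms (0.05 ± 0.20). By role, 8 of 12 licensing genes fell, 5 of 7 for helicase activation and elongation, neither gene of nucleotide supply, 6 of 9 cyclin, kinase and Cdc25 genes, 2 of 4 E2F factors, 6 of 7 mitotic kinase and checkpoint genes, 8 of 11 centromere and chromosome genes and 5 of 6 kinesins. The count was 10 without the P5 mid-day library and 17 without the E21 mid-day library, with no member higher, and 9 passed in every alternative in which they were tested: Aurkb, Bub1, Cenpa, Cenpf, Kif20b, Kif22, Mcm3, Mcm5 and Top2a.

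At P20 against P5, 27 of the 58 were lower (5.99% of all) and none higher (1.02% of all), with a median of -0.79 beside -0.18. The 26 transcripts with no P20 or P40 library at 1 FPKM, Top2a and Cdc20 among them, entered the test through the young ages alone. Calls among these 26 were not counted apart, so the 27 of 58 and the counts by role carry that limit. Top2a fell by 2.62 ± 0.22 (adjusted p = 0.00166), Cdk1 by 2.36 ± 0.24 and Cdc20 by 2.03 ± 0.20. Aurkc, Orc4l and Orc5l changed least, by -0.01 ± 0.25, 0.01 ± 0.22 and -0.02 ± 0.20. The falls were 5 of 7 mitotic kinase and checkpoint genes, 4 of 6 kinesins, 6 of 11 centromere and chromosome genes, 5 of 9 cyclin, kinase and Cdc25 genes, 5 of 12 licensing genes, 1 of 4 E2F factors, 1 of 7 for helicase activation and elongation, and neither for nucleotide supply. The count was 2 without the P5 mid-night library, 4 without the P20 mid-night library and 12 without the P20 mid-day library, and only Cdk1 and Top2a passed in every alternative in which they were tested. In the test of whether the log2 step to P5 differed from the step to P20, none of the 58 passed (1.61% of all did), with 3 at an unadjusted p under 0.05: Kif20b and Cenpl, whose estimate was larger before P5, and Cenpm, larger after.

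At P40 against P20 none of the 58 passed in limma, as for all transcripts tested (0%), and 3 had an unadjusted p under 0.05, where 669 of all 9960 did. Their median change was 0.00. These 3 were also the largest changes: Aurkc (-0.68 ± 0.25, adjusted p = 0.648), Orc3l (0.46 ± 0.19, adjusted p = 0.715) and Prim1 (0.42 ± 0.17, adjusted p = 0.715). The smallest, all 0.00, were Kif2c, Cenpf and Cenpa, which were under 0.3 FPKM at both ages. At such levels a change would be hard to see, since 1 fragment on a transcript of 1 kb was estimated to be worth 0.0274 to 0.0663 FPKM.

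**Figure D3:**
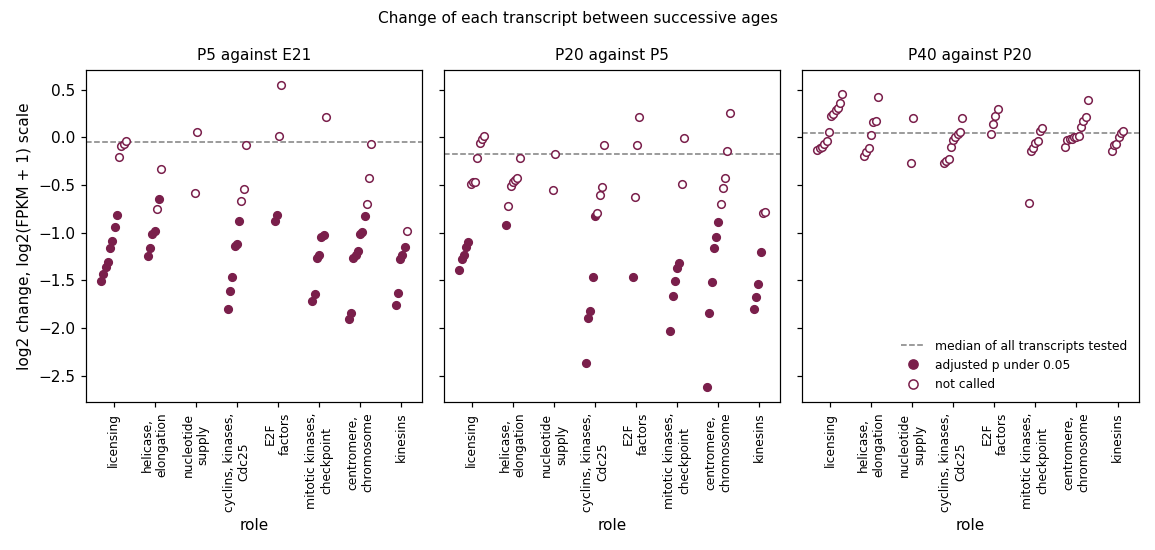
Log2 change of each of the 58 tested transcripts (points, by role on the horizontal axis) between successive ages, filled where the adjusted p was under 0.05, with the median of all transcripts tested as a dashed line. Filled points lie at -0.64 or lower at P5 against E21 (40 of 58) and at -0.82 or lower at P20 against P5 (27 of 58), and none is filled at P40 against P20.

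Over the 4 ages together none of the 58 differed between mid-night and mid-day in limma (0% of all transcripts did), with 5 at an unadjusted p under 0.05 and 1011 among all. With a night effect fitted for E21 and P5 alone, none of the 58 passed (0.0301% of all). With one fitted for P20 and P40, 4 of the 58 passed (4.39% of all in either direction), 3 higher and 1 lower at mid-night. A count of 4 of 58 is near the share among all transcripts and is not read as a result about these genes as a group.

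Cdc25a was the one lower at mid-night in the older glands, at 15.2 FPKM at mid-night against 32.9 at mid-day at P20 and 16.1 against 41.5 at P40 (log2 change -1.19 ± 0.17, adjusted p = 0.0102). At E21 the corresponding levels were 33.2 and 35.8 FPKM. Pcna was higher at mid-night, at 16.1 against 9.01 FPKM at P20 and 17.3 against 6.19 at P40 (1.06 ± 0.19, adjusted p = 0.0232). Kif11 was at 5.16 against 1.49 FPKM at P20 and 4.14 against 1.69 at P40 (1.12 ± 0.21, adjusted p = 0.0277). E2f3 was at 6.89 against 3.62 FPKM at P20 and 8.94 against 4.03 at P40 (0.88 ± 0.19, adjusted p = 0.0409). E2f6 had the same pattern and missed the threshold (0.82 ± 0.19, adjusted p = 0.0557), but passed with a filter at 5 FPKM (0.0426), with each library centred on its median (0.0335), with robust eBayes (0.0413) and with transcripts summed per symbol (0.0432). In these 5 the mid-night and mid-day libraries of P20 and P40 did not overlap, but they were picked from the same libraries, so this adds no support. Members without a call were also apart. Mcm7 had 1.41 and 1.20 FPKM at mid-night and 2.59 and 3.23 at mid-day (P20, then P40), and Kif20a 0.775 and 0.984 against 2.46 and 1.79. Each of the 4 calls was lost when any 1 of the 4 libraries of P20 and P40 was left out (adjusted p = 0.051 to 0.280), E2f3 and Pcna also without either P5 library, and E2f3 without the E21 mid-night library.

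Whether the night effect of the older glands differed from that of E21 and P5 was tested directly, and none of the 58 passed (0.753% of all did), with 6 at an unadjusted p under 0.05. The nearest were Pcna (difference of log2 changes 1.28 ± 0.27, adjusted p = 0.0945), Cdc25a (-1.04 ± 0.24, adjusted p = 0.129) and Kif11 (1.26 ± 0.30, adjusted p = 0.133). At single ages, with 1 library each and no test, none was 2-fold apart on FPKM + 1 at E21 (2.03% of all) or at P5 (1.85%). At P20 E2f6 and Kif11 were 2-fold higher at mid-night and Cdc25a 2-fold lower (5.16% of all), and at P40 Pcna was higher and Cdc25a lower (4.38%).

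**Figure D4:**
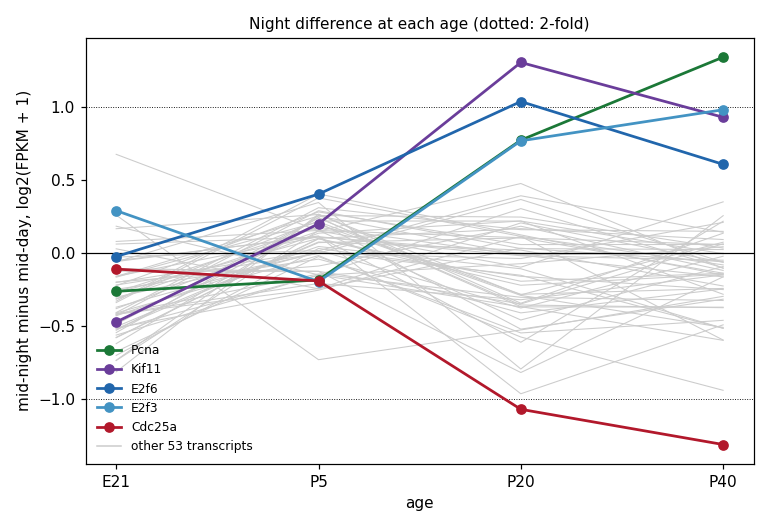
Difference of log2(FPKM + 1) between mid-night and mid-day (vertical axis) at each age (horizontal axis) for the 58 tested transcripts, 5 of them coloured, with dotted lines at 2-fold. Cdc25a lies at -1.07 at P20 and -1.31 at P40, while Pcna, Kif11, E2f3 and E2f6 lie between 0.61 and 1.34 at those ages.

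At E21 the mid-night library lay below the mid-day library for 50 of the 58 (86.2%), beside 52.2% of all transcripts tested, with a median difference of -0.31 beside -0.01. This held for 6 of 6 kinesins, 10 of 11 centromere and chromosome genes, 10 of 12 licensing genes and 5 of 7 mitotic kinase and checkpoint genes, and the exceptions in all roles were Aurkc, Cdc20, Cdc6, Cdc7, Cdk2, Cenpm, E2f3 and Mcm6. At P5 the order was the other way for 39 of the 58 (67.2%), near the 61.8% of all transcripts tested. There was 1 pool for each time, so this is a difference between pools. Some other lists differed between the same E21 pools, at mid-night and mid-day, by summed FPKM: 1207 and 855 for 6 fibroblast and matrix markers, 45.4 and 36.3 for endothelial markers, and 7118 and 12274 for 5 erythroid markers. Others were close, at 967 and 968 for pinealocyte markers and 55.0 and 60.1 for neural progenitor markers. The part of these cell types in the result was not tested.

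Other genes of the same processes, from lists that do not overlap the 63 symbols, were also tested. These lists, too, were chosen with earlier results of these data known, and the values come from the same libraries. Of 40 mitosis genes and 34 replication genes listed, 31 of each were found. Of 31 further mitosis genes tested 28 were lower at P5 against E21, 19 at P20 against P5 and 31 at P40 against E21, with a median of -2.43 at P40 beside -0.18 over all transcripts. The shares of all transcripts lower in these contrasts were 6.84%, 5.99% and 26.8%. Of 31 further replication genes 21, 8 and 28 were lower, with a median of -1.43 at P40. None of either list was higher (8.29%, 1.02% and 16.1% of all were). The mitosis genes of highest mean level were Prc1, a microtubule bundler of the central spindle (-1.36 ± 0.42 at P40 against E21, adjusted p = 0.0328), and the condensin subunits Smc4 (-1.93 ± 0.29) and Smc2 (-1.55 ± 0.24). Among replication genes these were Gins2, of the active helicase, which fell by 0.74 ± 0.19 (adjusted p = 0.0163), and Rfc1, the large clamp loader subunit, and Rpa1, of the single-strand binding complex, which were at 0.06 ± 0.17 and 0.05 ± 0.28 (adjusted p = 0.783 and 0.893). With the night effect fitted for P20 and P40, 1 of the 31 mitosis genes was lower at mid-night, and 1 of the 31 replication genes was lower and 1 higher. Over all transcripts 4.39% passed in either direction, so these counts are not read as a result about the lists. The mitosis gene was Prc1, at 1.89 against 8.03 FPKM at P20 and 4.08 against 12.3 at P40 (-1.51 ± 0.19, adjusted p = 0.00643). At E21 mid-night, 29 of 31 mitosis genes and 23 of 31 replication genes lay below mid-day, beside 52.2% of all transcripts tested. These values come from the same E21 pools, 1 for each time, so this too is a difference between pools.

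Regulators of G1 were mixed: of 10 tested, 4 were lower and 1 higher at P40 against E21, 3 lower at P5 against E21 and 2 lower at P20 against P5. Over all transcripts tested 26.8% were lower and 16.1% higher at P40 against E21. The shares lower were 6.84% at P5 against E21 and 5.99% at P20 against P5. Ccnd2, cyclin D2, had the highest level and was at 49.2 and 59.7 FPKM at E21, 49.0 and 46.1 FPKM at P5, 38.4 and 27.9 at P20, then 57.8 and 35.8 at P40 (-0.25 ± 0.25 at P40, adjusted p = 0.450). Its partner Cdk4 had 51.0 and 81.0, 31.6 and 26.5, 14.7 and 18.6, and 17.2 and 20.4 FPKM and fell by 1.73 ± 0.23 (adjusted p = 0.000961). Cdk4 was lower at each step to P20 in both libraries, and so was Ccnd2, whose P40 libraries overlapped those of every other age. Rb1, the retinoblastoma protein that holds E2F factors, was at 0.21 ± 0.17 (adjusted p = 0.354). Of 7 inhibitors and antiproliferative genes tested none was higher and 4 were lower at P40, 3 of them lower at P20 against P5 and none at P5 against E21. These counts stand beside the same shares of all transcripts. Btg1 was at -0.49 ± 0.19 (adjusted p = 0.0739), Btg2 fell by 1.90 ± 0.32 and Cdkn1b, the inhibitor p27, was at -0.25 ± 0.31 (adjusted p = 0.540).

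Markers of cell types changed with age in both directions. Of all transcripts tested, 26.8% were lower and 16.1% higher at P40 against E21. All 6 fibroblast and matrix markers were lower at P40 against E21, their summed level being 99.9 and 136 FPKM at P40 (mid-night, mid-day) and 1207 and 855 at E21. So were all 4 endothelial markers tested (12.0 and 15.8 FPKM at P40, 45.4 and 36.3 at E21; Cldn5 was listed at 0 in every library) and all 5 neural progenitor markers tested (15.1 and 15.3 at P40, 55.0 and 60.1 at E21; Hes5 was at most 0.207). Of 5 erythroid markers 3 were lower, and of 5 choroid plexus markers 1 was lower. Of 4 astrocyte and interstitial glia markers tested 3 were higher and 1 lower. Among 6 microglia and macrophage markers 3 were higher and 1 lower. None of the 4 oligodendrocyte lineage markers tested was called. Of 10 pinealocyte markers 7 were higher, with a sum of 5825 and 4660 FPKM at P40 against 967 and 968 at E21. The choroid plexus markers summed to 17551 FPKM in the P5 mid-night library and 2942 in the P5 mid-day library, against 485 to 1315 elsewhere. The part of these cell types in the falls was not tested. The replication and mitosis genes tested summed to 500 and 643 FPKM at E21, 284 and 271 FPKM at P5, 153 and 169 at P20, then 165 and 189 at P40.

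The 6 transcripts below the minimum were Ccna1, a cyclin best known from meiosis (0.109 to 0.546 FPKM), Ccnb2 (at most 0.0333), Orc1l (0.0220 to 0.732), Rrm2, the small subunit of ribonucleotide reductase (at most 0.113), the second Kif2c transcript and Cdc45l, listed at 0 in every library. Orc1l had its highest values at E21, 0.540 and 0.732 FPKM. Because widely used genes such as Gapdh (at most 0.524 FPKM) and Rps18 (at most 0.579 FPKM) also stood near 0 in these values, a 0 may be a failed estimate and is not read as absence.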

How the data were processed

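Whole pineal glands were sequenced in 8 pooled libraries, 4 ages by 2 times of day. The authors deposited FPKM for each RefSeq transcript, and per the submitters' processing notes used TopHat 1.3.1, Cufflinks 1.2.0 and rn4. Scaling beyond FPKM, and the handling of strand and of multi-mapping reads, are not given in the sources used here. The files of single samples and the table of the whole series held the same values in 8 of 8 libraries.

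The test covered 9960 transcripts, those that reached 1 FPKM in 2 or more libraries, on the log2(FPKM + 1) scale, which understates changes of low transcripts. It was limma 3.58.1 (R 4.3.3) with trended eBayes, two-sided, and p-values adjusted after Benjamini and Hochberg over all 9960 (threshold 0.05). Age and time of day were the terms (3 residual degrees of freedom), so a night effect that changed with age counted as residual spread. A second fit had age, a night effect for E21 and P5 and another for the older ages, which left 2 residual degrees of freedom. The fit was tested on simulated data. FPKM hold no counts, so no counting intervals are given. Depth was estimated from olfactory receptor transcripts spanning at most 1100 bases, by taking the lowest cluster of FPKM times span as 1 fragment. Each library gave 13 to 26 such values, with 4 to 14 in the cluster.

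The members, roles, lists of other genes and tests were chosen with earlier results of these data known. Values in every library are given for the 3 most abundant members of each role, members not lower at P40, the 3 largest and 3 smallest changes between ages, and members that differed by time of day. Mcm7 and Mcm6 were added as examples. Alternatives were other pseudocounts, filters, scalings and fits, and leaving out each library. The term for time of day pairs libraries across ages, and the fit without it was among the alternatives. No paired analysis of repeat samples was possible because every combination of age and time has a single library.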

Additional observations from a re-analysis of the deposited data

How the results depend on the processing

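Of the 48 transcripts lower at P40 against E21, 41 were called in every alternative in which they were tested, and 45 in every such alternative with all libraries (Cdc25b, Mcm4 and Pcna were not). With a filter at 5 FPKM, 37 members were left and 29 were lower, the fewer tested setting the lower count. Leaving out 1 library gave 42 to 49 calls in either direction for P40 against E21 (41 to 48 lower and at most 1 higher), 10 to 38 lower for P5 against E21 (40 with all) and 2 to 26 for P20 against P5 (27 with all). The filter at 5 FPKM gave 24 for P5 against E21, and a pseudocount of 5 gave 16 for P20 against P5. Centring each library on its median removed a shift of -0.18 over all transcripts at P40 against E21, left 46 members lower and 2 higher there (Cenpj and Orc3l), and called 1 member for a night effect that differed with age (0 otherwise).

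For Cdc25a at P40 against E21, leaving out 1 library gave log2 changes from -0.82 (without P40 mid-day) to 0.0333 (without P40 mid-night). Counts 2-fold apart between mid-night and mid-day depended on the settings. At a fold of 1.5 they were 7 at E21, 1 at P5, 9 at P20 and 8 at P40. With a pseudocount of 0.1 they were 1 at P5, 10 at P20 and 7 at P40, and with a pseudocount of 5 they were 0 at P20 and 1 at P40. Of the night calls at P20 and P40, Cdc25a was kept in all alternatives with all libraries, E2f3 and Kif11 were lost with a pseudocount of 5 or no filter, and Pcna with no filter. The causes were not tested. With 1 pool per age and time, differences between animals could not be measured, and under about 0.1 FPKM a value rests on few fragments.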
